A study of Mus musculus with 8 samples.

Results

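The 42 genes whose symbols start with Nduf, out of 22552 gene symbols, were followed across UCP1-TRAP RNA of 3 adipose depots. Of these, 38 carry subunit names of mitochondrial Complex I and 4 (Ndufaf1 to Ndufaf4) are named as assembly factors. UCP1-TRAP pulls down, with a rabbit antibody against GFP, the ribosome-bound RNA of cells marked through Ucp1, the uncoupling protein gene of heat-producing adipocytes. There were 3 libraries of the inguinal depot of white adipose tissue (WAT), 2 of the perigonadal depot and 3 of brown adipose tissue (BAT), so expression of Ucp1 defines the cells sampled. All 3 groups came from females whose strain is given as C57B/6 UCP1-TRAP; they were bred at 30 °C, kept at room temperature after weaning at 3 weeks, and spent 2 weeks at 4 °C from the age of 4 weeks until harvest at 6 weeks. Every group had therefore been in the cold, and no warm-housed mice or unbound RNA were compared. The labels do not say whether libraries came from separate animals or pools, so p-values measure the spread between these libraries, which may be technical.

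Complex I, or NADH:ubiquinone oxidoreductase, is the entry point of NADH electrons into the respiratory chain and pumps protons across the inner mitochondrial membrane. An L-shaped enzyme, it has a peripheral arm in the matrix, with an N module that oxidises NADH and a Q module that reduces ubiquinone, and a membrane arm that carries the proton pumps. The catalytic core of the peripheral arm is encoded in the nucleus and that of the membrane arm in mitochondrial DNA; accessory subunits surround both, and assembly factors build the modules without staying in the enzyme. Brown and beige adipocytes are rich in mitochondria, and their respiratory chain supplies the proton gradient that UCP1 dissipates as heat. Roles given below come from the human and bovine enzymes. The mitochondrially encoded core subunits were not analysed here.

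Promoter sequences of 3 members are shown because their genes mark the extremes of the depot comparison described below. Ndufb4 and Ndufs6 had the most negative scaled differences between perigonadal WAT and BAT among called members, and Ndufv1 was the 1 member with positive scaled differences in both white depots. Each window runs from 250 bases before to 50 bases after the RefSeq start, 5′ to 3′ on the gene's strand, in GRCm38.p6. Capitals mark matches to any of the searched motifs.
Ndufb4 (chr16:37654319-37654618, minus strand): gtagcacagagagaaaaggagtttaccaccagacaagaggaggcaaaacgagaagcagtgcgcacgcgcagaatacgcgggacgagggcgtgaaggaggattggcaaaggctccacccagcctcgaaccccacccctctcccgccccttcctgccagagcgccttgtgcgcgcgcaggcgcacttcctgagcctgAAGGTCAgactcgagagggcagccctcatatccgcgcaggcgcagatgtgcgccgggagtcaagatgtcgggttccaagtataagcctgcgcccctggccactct
Ndufs6 (chr13:73328433-73328732, minus strand): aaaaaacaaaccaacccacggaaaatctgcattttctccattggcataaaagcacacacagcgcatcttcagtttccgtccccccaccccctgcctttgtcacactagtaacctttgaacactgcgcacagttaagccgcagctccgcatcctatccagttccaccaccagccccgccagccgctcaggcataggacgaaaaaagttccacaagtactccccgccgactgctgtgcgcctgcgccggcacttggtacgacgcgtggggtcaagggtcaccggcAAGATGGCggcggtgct
Ndufv1 (chr19:4012706-4013005, minus strand): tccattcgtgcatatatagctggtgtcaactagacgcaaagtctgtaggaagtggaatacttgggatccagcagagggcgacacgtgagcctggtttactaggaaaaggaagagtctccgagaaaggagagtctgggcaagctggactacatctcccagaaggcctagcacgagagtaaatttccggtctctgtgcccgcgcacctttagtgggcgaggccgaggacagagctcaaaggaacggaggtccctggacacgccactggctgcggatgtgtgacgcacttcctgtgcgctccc
In these windows the capitals are the oestrogen-related receptor core AAGGTCA in Ndufb4, 55 bases before the start, and the YY1 core AAGATGGC in Ndufs6, after the start; Ndufv1 held none of the letters searched.

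The search read 4 motifs on both strands in the windows of the 37 members with a RefSeq entry: the NRF1 consensus (given by name only), the YY1 core AAGATGGC, the ETS core CCGGAAG and the oestrogen-related receptor core AAGGTCA. The YY1 core stood in 7 of the 37 members (18.9%) against 3.19% of all 27025 genes with a window, in Ndufa3, Ndufa9, Ndufb8, Ndufc1, Ndufs4, Ndufs6 and Ndufs7. The NRF1 consensus was in 2 (5.41% against 1.07%), the ETS core in 5 (13.5% against 9.93%) and the receptor core in 3 (8.11% against 5.38%). No match of one motif overlapped a match of another. Of the 7 members with a YY1 core, 4 had a scaled difference between perigonadal WAT and BAT that passed the test described below, as had 14 of the 30 without one. These are matches of letters, not binding sites.

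The libraries were shallow and unequal: FPKM totals ran from 75925 (inguinal replicate 3) to 206549 (perigonadal replicate 1), and 5859 to 9548 genes per library had at least 1 FPKM. FPKM counts fragments relative to transcript length and to the sequencing depth of the library. Because totals differed, each value is given as deposited and after median-ratio scaling, which divides a library by the median ratio of its genes to their geometric mean over libraries (factors of 0.545 to 1.81, the extremes again inguinal replicate 3 and perigonadal replicate 1). Scaling moved the median log2 difference of all 8958 genes tested to 0.03, against 0.52 as deposited, for perigonadal WAT minus BAT, and to -0.01, against -0.50, for inguinal minus perigonadal WAT. UCP1-positive adipocyte markers were found in all libraries, 10 of 10 genes with summed FPKM of 3714 to 7501 in inguinal WAT, 7519 to 10416 in perigonadal WAT and 6651 to 7947 in BAT. Fabp4 alone gave 2145 to 4120, 4089 to 6359 and 2505 to 3046 FPKM in the same order, so the sums do not rank the depots. Scaled log2 differences of Ucp1 were -0.47 and -0.67 for inguinal and perigonadal WAT minus BAT. Cidea, Dio2, Cox8b, Cox7a1 and Pparg were also negative in both, while Fabp4, Adipoq and Plin1 were positive in both. No direction is given here for Ppargc1a, the remaining marker of the 10. Smooth muscle markers (9 genes) summed to 42.5 to 135, 8.16 to 16.1 and 7.40 to 8.43 FPKM in inguinal WAT, perigonadal WAT and BAT, with 4 of the 9 at 0 in all BAT libraries. Mammary luminal markers (11 genes, Csn2 and Wap at 0 in every library) summed to 96.6 to 122, 2.27 to 2.91 and 7.02 to 22.0 FPKM, with 10 of the 11 at 0 in all BAT libraries and 4 in both perigonadal ones, and 5 basal and myoepithelial markers to 10.9 to 27.7, 0.268 to 1.25 and 0 FPKM. Skeletal muscle (10 genes), macrophage (6 of 7 found) and endothelial markers (6 genes) summed to at most 9.29, 11.9 and 9.54 FPKM in any library. The part of these other cells in the results was not tested, and in such RNA fewer marked cells and less RNA per cell cannot be told apart.

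Complex I subunit genes were abundant in all 3 depots. The 36 subunits other than Ndufa4 and Ndufa4l2 averaged between 15.5 FPKM (Ndufa11) and 368 FPKM (Ndufa3) over the 8 libraries. The assembly factors lay lower, between 4.85 FPKM (Ndufaf3) and 8.84 FPKM (Ndufaf4). The median over members of a role was 94.0 FPKM for the N module core, 143 for the Q module core, 133 for accessory subunits of the peripheral arm, 126 for those of the proximal and 145 for those of the distal membrane arm, and 7.63 for assembly factors. Ndufa4, Ndufa3 and Ndufb9 had the highest means, at 459.5, 368 and 252 FPKM, and Ndufa4l2, Ndufaf3 and Ndufaf1 the lowest, at 0.287, 4.85 and 6.66 FPKM. Across the 42 members, Spearman's rho between any 2 libraries ran from 0.860 to 0.972 with a median of 0.933, a description across genes of the same libraries. Over the 36 subunits, without the low assembly factors, it ran from 0.777 to 0.955 with a median of 0.896.

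**Figure D1:**
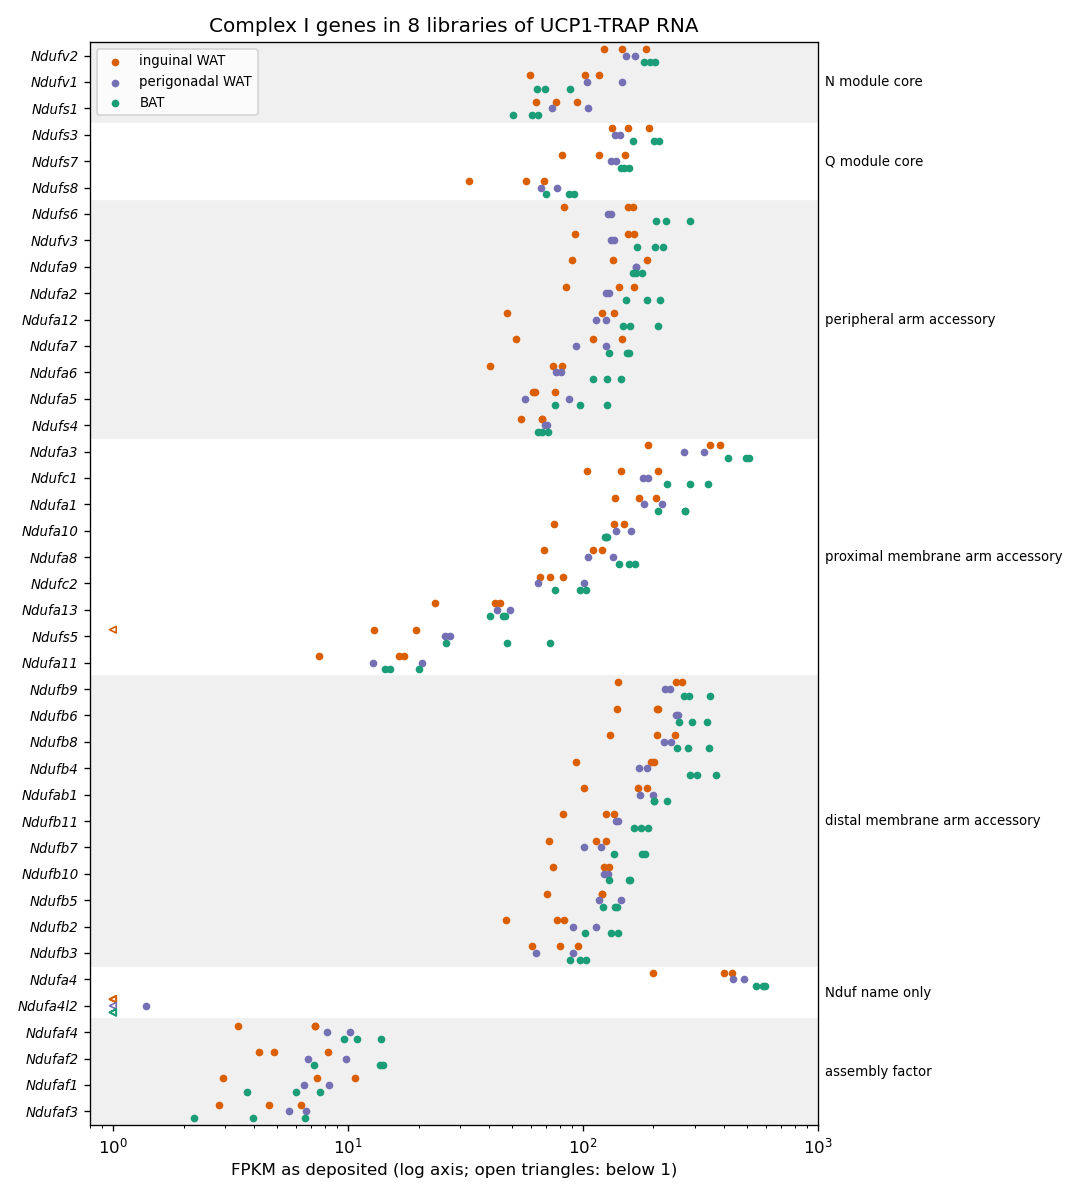
FPKM as deposited of 41 of the 42 Complex I genes on a log axis, 1 point per library (3 inguinal WAT, 2 perigonadal WAT, 3 BAT), grouped by role and ordered by mean; open triangles are values below 1. Most subunits lie near 100 FPKM in all depots, the 4 assembly factors near or below 10, and inguinal replicate 3 is often the lowest point.

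Summed over the 38 genes with subunit names, values were lower in RNA of the white depots than in RNA of BAT. The sum includes Ndufa4l2 and Ndufa4, the most abundant member, whose protein is now assigned to cytochrome c oxidase. As deposited, the 38 subunit genes summed to 5545, 5047 and 3090 FPKM in inguinal WAT, 5417 and 5114 FPKM in perigonadal WAT and 7114, 6672 and 6122 FPKM in BAT. All 5 white depot libraries lay below all 3 BAT libraries. After scaling the sums were 4573, 4442 and 5673 in inguinal WAT, 2997 and 4428 in perigonadal WAT and 7662, 7363 and 6909 in BAT, again without overlap between white and brown depots. The ratio of means to BAT was 0.687 as deposited and 0.670 scaled for inguinal WAT, and 0.794 as deposited and 0.508 scaled for perigonadal WAT. Inguinal and perigonadal WAT changed order with scaling, with a ratio of inguinal to perigonadal WAT of 0.866 as deposited and 1.32 scaled. As a share of all FPKM of a library, which is the same with and without scaling, these 38 genes took 3.82 ± 0.242% (SD, n = 3) in inguinal WAT, 3.04 ± 0.590% (SD, n = 2) in perigonadal WAT and 5.21 ± 0.252% (SD, n = 3) in BAT. Such a share also depends on the other genes in the total and on the differences by transcript length shown further on.

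The 7 catalytic core genes made up a larger part of the subunit sum in the white depots: 18.2%, 15.3% and 19.3% in inguinal WAT and 17.6% and 16.6% in perigonadal WAT, against 12.2%, 13.5% and 15.0% in BAT. The white and brown libraries did not overlap in this share, though the lowest inguinal library (15.3%) and the highest BAT library (15.0%) nearly met. The median transcript length was 1472 nt for the core genes and 567 nt for the 29 accessory genes, and differences between depots varied with length, as shown further on.

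**Figure D2:**
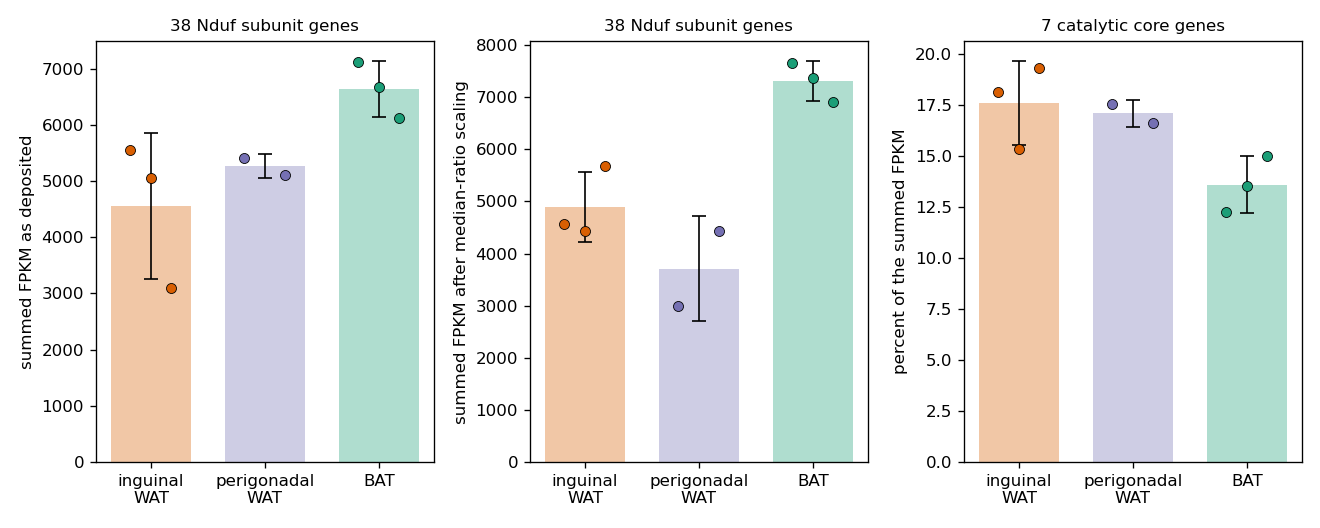
Summed FPKM of the 38 Nduf subunit genes as deposited (left) and after median-ratio scaling (middle), and the percent of that sum as deposited in the 7 catalytic core genes (right); points are libraries, bars group means and whiskers SD (n = 3, 2 and 3). Both sums are lower in each white depot library than in any BAT library, and the core share is higher.

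Member by member, the size of the difference between white depots and BAT depended on scaling. A gene was called at an adjusted p under 0.05 by limma on log2(FPKM + 1), with Benjamini-Hochberg adjustment over all 8958 genes tested, and 41 of the 42 members were tested. As deposited, inguinal WAT had 1 member called lower relative to BAT (Ndufs5), with 0.469% of all genes called so, and perigonadal WAT had 0, with 0.268% of all genes. At an unadjusted p under 0.05, limma had 13 members lower in inguinal WAT (background 3.14%) and 2 lower in perigonadal WAT (background 1.11%), and 0 higher in either. The white and brown libraries did not overlap, with the white depot lower, for 23 members in inguinal WAT (background 5.37%) and 21 in perigonadal WAT (background 3.72%). The median log2 difference of the members was -0.55 in inguinal WAT, against 0.03 over all genes, and -0.32 in perigonadal WAT, against 0.52 over all genes. Without inguinal replicate 3 the median in inguinal WAT was -0.25.

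After scaling, the members called lower relative to BAT numbered 7 in inguinal WAT (background 1.65%) and 20 in perigonadal WAT (background 3.46%), and 0 were called higher in either. All 7 were among the 20: Ndufa4, Ndufa6, Ndufa8, Ndufa12, Ndufb4, Ndufs6 and Ndufaf4. The 2 comparisons share the BAT libraries. Without overlap and lower in the white depot were 27 members in inguinal WAT (background 11.7%) and 35 in perigonadal WAT (background 19.4%). The median log2 differences of the members were -0.56 in inguinal WAT and -0.99 in perigonadal WAT, against 0.01 and 0.03 over all genes. Individual libraries decided much of the counts: between 1 (without BAT replicate 1) and 9 members were called in inguinal WAT, and 2 (without perigonadal replicate 1), 7 (without BAT replicate 1), 11 (without BAT replicate 2) and up to 25 (without inguinal replicate 3) in perigonadal WAT. Leaving out any 1 of the inguinal libraries gave 3, 3 and 4 in inguinal WAT (replicates 1, 2 and 3 in turn), and leaving out BAT replicates 2 and 3 gave 3 and 2. Ndufb4 was the 1 member called in both comparisons whichever library was left out, and Ndufs6 was so in perigonadal WAT. The other 6 calls in inguinal WAT were lost without BAT replicate 1, and the other 18 in perigonadal WAT without perigonadal replicate 1. Among the 34 members listed with 1 transcript and overlapping no other gene, values rested on 4 to 848 fragments per library (median 167), recovered from FPKM and its upper confidence limit.

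**Figure D3:**
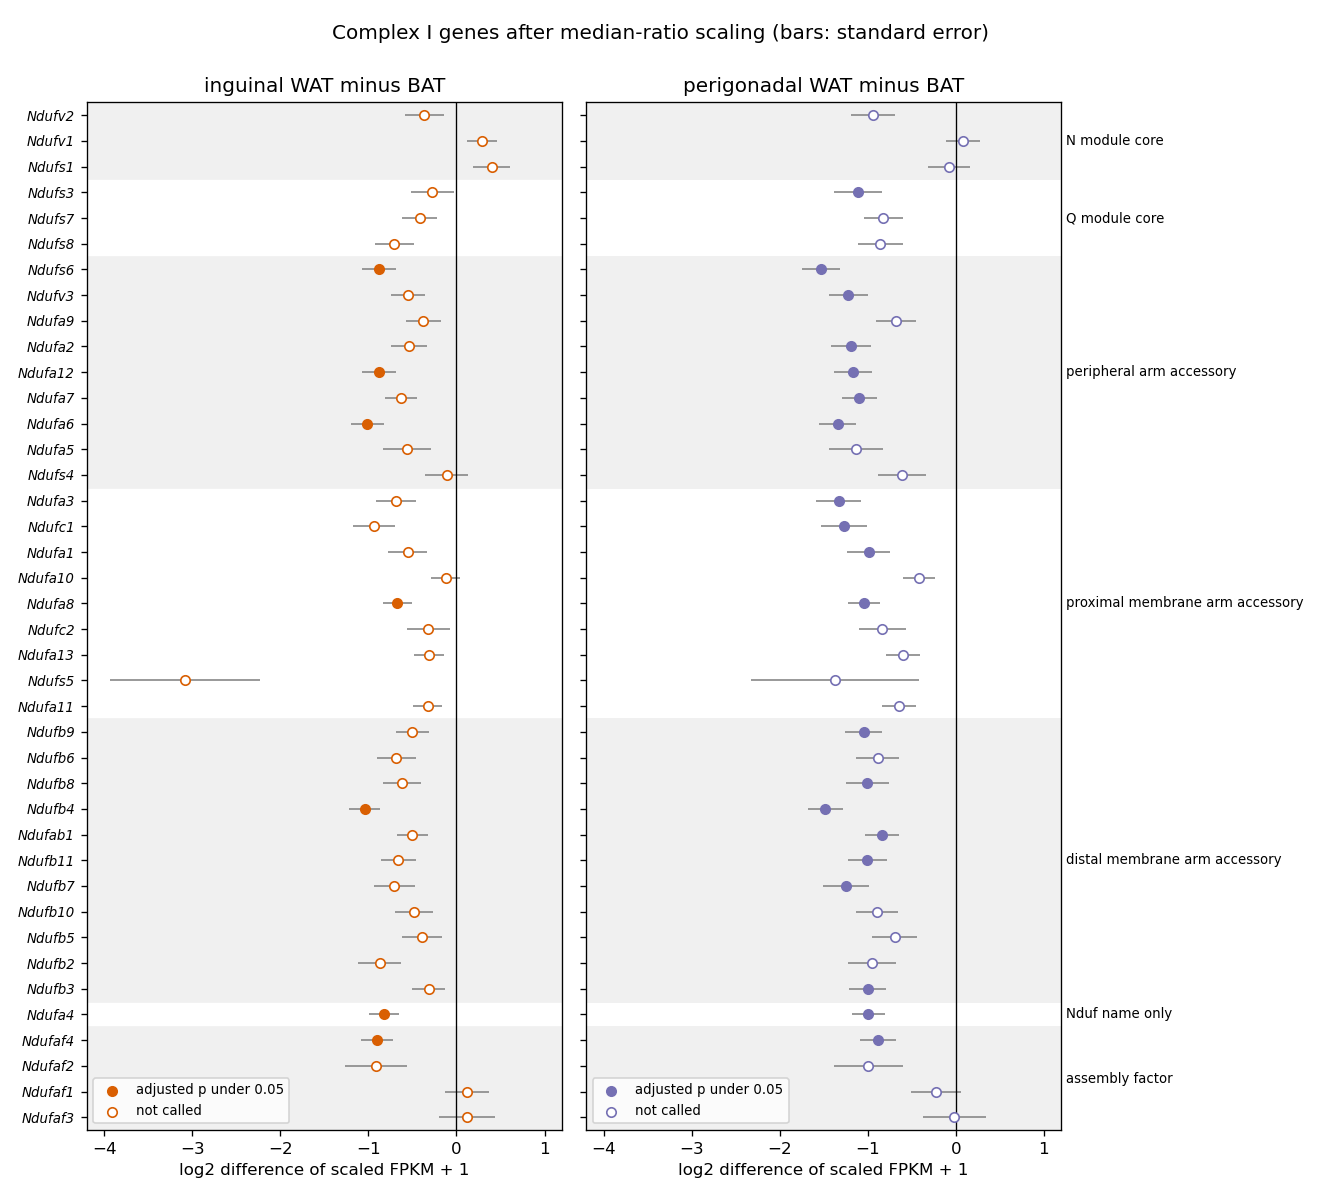
Log2 difference of scaled FPKM + 1 for 40 of the 41 tested members, grouped by role, inguinal WAT minus BAT (left) and perigonadal WAT minus BAT (right); bars are standard errors, filled points an adjusted p under 0.05. Nearly all points lie left of 0, and Ndufv1 and Ndufs1 of the N module core lie near it or to its right.

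The 3 N module core genes encode the NADH-oxidising head, and none was called in either comparison. Ndufv1 (chr19:4007505–4012725 in mm9, as for all positions from the files), which holds the flavin that takes electrons from NADH, had 118, 102 and 59.5 FPKM in inguinal WAT, 147 and 104 FPKM in perigonadal WAT and 69.3, 88.5 and 63.9 FPKM in BAT. Both perigonadal libraries lay above all BAT libraries, and the inguinal ones overlapped them. After scaling, Ndufv1 overlapped between depots (log2 difference 0.28, SE 0.17, limma adjusted p = 0.395 for inguinal WAT minus BAT; 0.08, SE 0.19, adjusted p = 0.869 for perigonadal WAT minus BAT). Ndufs1 (chr1:63190166–63223396), the large iron-sulfur subunit, had 94.8, 76.9 and 63.5 FPKM in inguinal WAT, 105 and 73.9 FPKM in perigonadal WAT and 50.5, 64.3 and 61.0 FPKM in BAT. Its scaled log2 difference was 0.40 (SE 0.21, limma adjusted p = 0.334) for inguinal WAT minus BAT and -0.07 (SE 0.24, adjusted p = 0.909) for perigonadal WAT minus BAT. Ndufv2 (chr17:66428135–66450831), another iron-sulfur protein of the head, pointed the other way, with 185, 147 and 124 FPKM in inguinal WAT, 167 and 152 FPKM in perigonadal WAT and 202, 194 and 183 FPKM in BAT. Its scaled log2 difference of -0.94 in perigonadal WAT minus BAT just missed the threshold (limma adjusted p = 0.0517).

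Of the 4 Q module core genes, which line the path to ubiquinone, 1 was called in perigonadal WAT minus BAT after scaling (background 3.46%). In inguinal WAT minus BAT, as deposited and with the length adjustment described below, 0 were called. Ndufs3 (chr2:90734793–90744878) had 192, 156 and 134 FPKM in inguinal WAT, 145 and 137 FPKM in perigonadal WAT and 202, 164 and 212 FPKM in BAT. Its inguinal libraries overlapped BAT and its perigonadal libraries did not, and the scaled log2 difference of -1.11 (SE 0.27) in perigonadal WAT minus BAT was called (limma adjusted p = 0.0365). Ndufs7, which carries the last iron-sulfur cluster before ubiquinone, had 117 ± 34.9 FPKM (SD, n = 3) in inguinal WAT, 135 ± 4.27 FPKM (SD, n = 2) in perigonadal WAT and 151 ± 5.89 FPKM (SD, n = 3) in BAT. Ndufs8, another iron-sulfur subunit, had 52.7 ± 18.1, 72.1 ± 7.92 and 83.0 ± 11.7 FPKM, in the same order of depots and with the same n. Their scaled log2 differences in perigonadal WAT minus BAT were -0.82 for Ndufs7 and -0.86 for Ndufs8, and neither passed.

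Accessory subunits were 29 of the 41 tested members. After scaling, 5 of them were called in inguinal WAT (background 1.65%) and 17 in perigonadal WAT (background 3.46%), and all 29 had negative scaled differences in both. With the length adjustment described below, 0 and 2 were called (background 0.960% and 0.848%). In the peripheral arm 3 of 9 were called in inguinal WAT and 6 of 9 in perigonadal WAT. Ndufs6 (chr13:73457324–73465930), a zinc-binding subunit of the N module, had 164, 156 and 83.6 FPKM in inguinal WAT, 131 and 128 FPKM in perigonadal WAT and 286, 226 and 205 FPKM in BAT. Every white depot library lay below every BAT library, as deposited and scaled. Its scaled log2 difference was -0.88 (SE 0.19, limma adjusted p = 0.0305) for inguinal WAT minus BAT and -1.53 (SE 0.22, adjusted p = 0.00356) for perigonadal WAT minus BAT. Ndufa6 (chr15:82180569–82184721), a LYR-motif protein that binds the mitochondrial acyl carrier protein, had 81.7, 74.5 and 40.1 FPKM in inguinal WAT, 80.9 and 76.7 FPKM in perigonadal WAT and 145, 110.2 and 127 FPKM in BAT. Its scaled log2 differences were -1.01 (SE 0.18, limma adjusted p = 0.0130) and -1.34 (SE 0.21, adjusted p = 0.00533) for inguinal and perigonadal WAT minus BAT, and the libraries did not overlap.

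Ndufa12 (chr10:93661754–93683693), which takes the place of the assembly factor NDUFAF2 late in assembly, had 136, 121 and 47.7 FPKM in inguinal WAT, 126 and 114 FPKM in perigonadal WAT and 208, 148 and 159 FPKM in BAT. Here too the white depots lay below BAT without overlap, with scaled log2 differences of -0.88 and -1.17 for inguinal and perigonadal WAT minus BAT (limma adjusted p = 0.0309 and 0.0128). Ndufv3 (chr17:31657060–31668270), an N module subunit, was called in perigonadal WAT, with 166, 156 and 92.5 FPKM in inguinal WAT, 136 and 132 FPKM in perigonadal WAT and 220.1, 203 and 169 FPKM in BAT (scaled log2 difference -1.22, SE 0.22, limma adjusted p = 0.0104). Its 3 BAT libraries were all above the 5 white depot libraries. Ndufa7 and Ndufa2, a small protein with a thioredoxin-like fold, were also called in perigonadal WAT, with scaled log2 differences of -1.10 and -1.19 (limma adjusted p = 0.0115 and 0.0146). Ndufa2 overlaps Tmco6 in the annotation, and reads of both genes cannot be told apart without strand. Ndufa5, Ndufa9 and Ndufs4 were not called, and Ndufs4 differed least, with a scaled log2 difference of -0.11 in inguinal WAT minus BAT and -0.61 in perigonadal WAT minus BAT.

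In the proximal membrane arm 1 of 9 members was called in inguinal WAT (background 1.65%) and 4 in perigonadal WAT (background 3.46%) after scaling. Ndufa3 (chr7:3568975–3571763), a small membrane protein with the shortest transcript of the tested members (349 nt), had 348, 385 and 189 FPKM in inguinal WAT, 271 and 329 FPKM in perigonadal WAT and 498, 509 and 414 FPKM in BAT. White and brown libraries did not overlap, and the scaled log2 difference was -1.33 (SE 0.25, limma adjusted p = 0.0142) in perigonadal WAT minus BAT and -0.68 (adjusted p = 0.128) in inguinal WAT minus BAT. Ndufa8 (chr2:35891854–35904812), a cysteine-rich protein facing the intermembrane space, was called in both, with 121, 110.4 and 68.6 FPKM in inguinal WAT, 135 and 105 FPKM in perigonadal WAT and 157, 166 and 143 FPKM in BAT. Its scaled log2 differences were -0.67 and -1.04 (limma adjusted p = 0.0473 and 0.0105). Ndufc1 and Ndufa1, both small membrane proteins, were called in perigonadal WAT, at -1.27 and -0.99 (limma adjusted p = 0.0203 and 0.0380). Ndufa10, Ndufa11, Ndufa13 and Ndufc2 were not called, at -0.42, -0.64, -0.60 and -0.83 in perigonadal WAT minus BAT; Ndufa13 overlaps Tssk6.

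In the distal membrane arm 1 of 11 members was called in inguinal WAT (background 1.65%) and 7 in perigonadal WAT (background 3.46%) after scaling. Ndufb4 (chr16:37647688–37654454) had 195, 202 and 93.5 FPKM in inguinal WAT, 188 and 173 FPKM in perigonadal WAT and 368, 306 and 286 FPKM in BAT. Every white depot library was below every BAT library, and after scaling the inguinal libraries lay close together at 161, 178 and 172, against 396, 338 and 322 in BAT. Its scaled log2 difference was -1.04 (SE 0.18, limma adjusted p = 0.00930) for inguinal WAT minus BAT and -1.48 (SE 0.20, adjusted p = 0.00305) for perigonadal WAT minus BAT; even as deposited it had the most negative difference after Ndufs5 in inguinal WAT (-1.04, adjusted p = 0.0974). The others called in perigonadal WAT were Ndufb7 (-1.24), Ndufb9 (-1.04), Ndufb11 (-1.004), Ndufb8 (-1.003), Ndufb3 (-0.997) and Ndufab1 (-0.84), with limma adjusted p of 0.0176 to 0.0359. Ndufab1 (chr7:129231558–129245362) encodes the mitochondrial acyl carrier protein, which also serves fatty acid synthesis in mitochondria, and had 188, 172 and 102 FPKM in inguinal WAT, 199 and 175 FPKM in perigonadal WAT and 229, 201 and 201 FPKM in BAT. Ndufb2, Ndufb5, Ndufb6 and Ndufb10 were not called, and Ndufb11 overlaps Rbm10 in the annotation.

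Ndufa4 (chr6:11850373–11857446) keeps a Complex I name but its protein is now assigned to cytochrome c oxidase, the last enzyme of the chain. It had 431, 398 and 200.02 FPKM in inguinal WAT, 486 and 434 FPKM in perigonadal WAT and 595, 547 and 585 FPKM in BAT, with all white depot libraries below BAT. The scaled log2 differences were -0.82 (SE 0.17, limma adjusted p = 0.0207) and -0.99 (SE 0.19, adjusted p = 0.0130) for inguinal and perigonadal WAT minus BAT. Its paralog Ndufa4l2 was at 0, 0.477 and 0 FPKM in inguinal WAT, 1.38 and 0.440 FPKM in perigonadal WAT and listed at 0 in all BAT libraries, and it fell below the minimum for testing.

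Assembly factors lay at the low end of the members, where fewest fragments were counted. Ndufaf4 (chr4:24825230–24832148), which acts with NDUFAF3 in early assembly of the Q module, had 7.27, 7.28 and 3.40 FPKM in inguinal WAT, 10.2 and 8.15 FPKM in perigonadal WAT and 13.8, 9.66 and 10.96 FPKM in BAT. As deposited perigonadal WAT overlapped BAT; scaled, the white depots had 5.99, 6.41 and 6.25 in inguinal WAT and 5.64 and 7.06 in perigonadal WAT, all below the 14.9, 10.7 and 12.4 in BAT. The scaled log2 differences were -0.91 (SE 0.18, limma adjusted p = 0.0207) for inguinal WAT minus BAT and -0.89 (SE 0.20, adjusted p = 0.0308) for perigonadal WAT minus BAT. Ndufaf3 had 6.30, 4.63 and 2.83 FPKM in inguinal WAT, 5.63 and 6.66 FPKM in perigonadal WAT and 2.21, 6.58 and 3.93 FPKM in BAT, which overlapped. Ndufaf1, a part of the complex that assembles the membrane arm, overlapped as well, with 7.01 ± 3.88 FPKM (SD, n = 3), 7.44 ± 1.29 FPKM (SD, n = 2) and 5.78 ± 1.94 FPKM (SD, n = 3) in inguinal WAT, perigonadal WAT and BAT. Ndufaf2, the chaperone whose place NDUFA12 takes, had 5.75 ± 2.17, 8.28 ± 2.16 and 11.7 ± 3.88 FPKM in the same order, and its scaled log2 differences of -0.91 and -0.99 to BAT did not pass (limma adjusted p = 0.185 in both). Among 15 assembly factors under other names that were tested, 2 were called, both in perigonadal WAT minus BAT after scaling (background 3.46%): Ndufaf8, listed as 1810043H04Rik (log2 difference -1.65, limma adjusted p = 0.0218), and Tmem70 (-0.94, adjusted p = 0.0413). With the length adjustment described below neither was called (Ndufaf8 -0.79, limma adjusted p = 0.296, and Tmem70 -0.83, adjusted p = 0.0839).

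Ndufs5, the 1 member called as deposited, is a special case of shared reads. It was listed at 19.5, 12.9 and 8.27e-05 FPKM in inguinal WAT, 27.3 and 26.0 FPKM in perigonadal WAT and 72.3, 47.4 and 26.1 FPKM in BAT (log2 difference -2.80, SE 0.52, limma adjusted p = 0.000132 for inguinal WAT minus BAT). All inguinal libraries lay below all BAT libraries, and 1 perigonadal library overlapped them. A second entry, BC002163, was listed on nearly the same span of chromosome 4 (chr4:123389953–123395404, against chr4:123389953–123395429 for Ndufs5), and once more on chromosome 16 (chr16:42955693–42956192). The entry at the Ndufs5 locus had 18.9, 62.1 and 15.4 FPKM in inguinal WAT, 34.5 and 10.7 FPKM in perigonadal WAT and 0.000437, 48.9 and 43.1 FPKM in BAT, so that Ndufs5 took between 0.000538% (inguinal replicate 3) and nearly all (BAT replicate 1) of the FPKM at the locus. In GENCODE transcripts (GRCm38), the 319 nt of BC002163 on chromosome 16 match Ndufs5 positions 93 to 411, the coding stretch, with 2 mismatches (99.4% identity): T173C and A197G, Ndufs5 base first and counted from the 5′ end of the Ndufs5 transcript. The BC002163 transcript compared is the copy on chromosome 16, so these bases tell that copy from Ndufs5 and not the entry on the same exons of chromosome 4. The stretch around both bases is shown, with the differing bases in capitals.
Ndufs5 (transcript positions 155 to 215): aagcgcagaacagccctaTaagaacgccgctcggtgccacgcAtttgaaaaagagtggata
BC002163 on chromosome 16 (transcript positions 63 to 123): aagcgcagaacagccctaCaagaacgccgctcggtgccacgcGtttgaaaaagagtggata

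With all 3 entries summed, an alternative chosen after the data were seen, Ndufs5 and BC002163 had 176, 193 and 95.9 FPKM in inguinal WAT, 167 and 138 FPKM in perigonadal WAT and 219, 222 and 195 FPKM in BAT. The call in inguinal WAT was then lost as deposited (log2 difference -0.51, limma adjusted p = 0.843), and also with the 2 entries of the locus alone (-1.12, adjusted p = 0.207). After scaling, the 3 summed entries were lower in perigonadal WAT than in BAT (-1.14, SE 0.18, limma adjusted p = 0.00639) and not called in inguinal WAT (-0.51, SE 0.16, adjusted p = 0.111). The 2 entries of the locus alone had scaled differences of -1.37 (SE 0.32, limma adjusted p = 0.0319) in perigonadal WAT and -1.13 (SE 0.29, adjusted p = 0.0505) in inguinal WAT minus BAT. NDUFS5 is a cysteine-rich protein of the proximal membrane arm that faces the intermembrane space, and its level per depot cannot be had from its own entry alone.

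**Figure D4:**
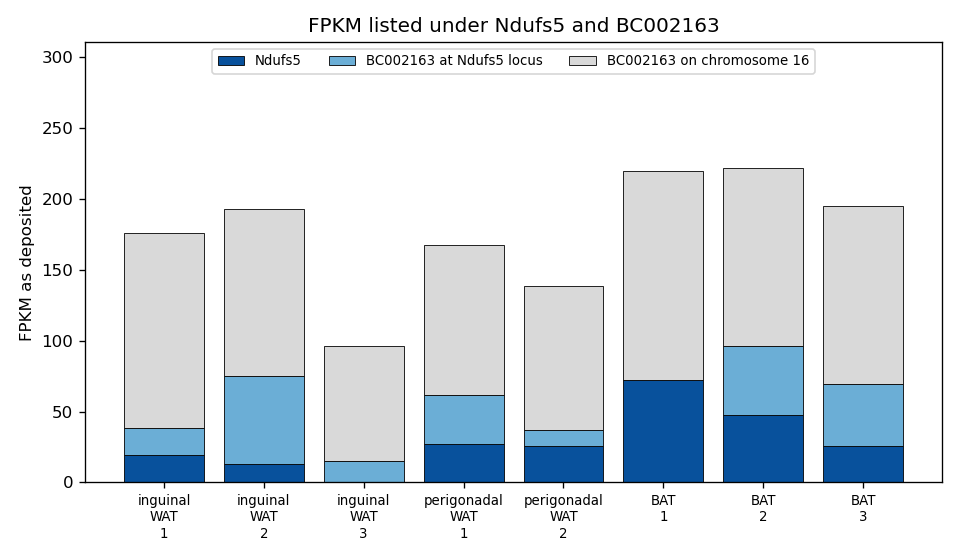
FPKM as deposited listed under Ndufs5, under BC002163 at the same locus and under BC002163 on chromosome 16, stacked for each of the 8 libraries. The Ndufs5 part varies from nearly 0 in inguinal replicate 3 to the whole locus in BAT replicate 1, while the stacked height is 95.9 to 193 in inguinal WAT, 138 and 167 in perigonadal WAT and 195 to 222 in BAT.

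Between the white depots 0 members were called, as deposited or scaled, where 0.703% and 0.313% of all genes were; at an unadjusted p under 0.05, limma had 1 lower in inguinal WAT as deposited (background 11.2%) and 9 higher after scaling (background 4.76%). The members' median log2 difference, inguinal minus perigonadal WAT, was -0.29 as deposited and 0.35 after scaling, against -0.50 and -0.01 over all genes. The sign thus turned with scaling, while in both cases the members lay above the median of all genes. Other short genes did so too: scaled, the 21 members under 700 nt had a median of 0.43. The 163 other genes of that length with a mean of at least 20 FPKM also had 0.43. With the length adjustment described below the members' median was 0.10, against -0.01 over all genes. In that fit 0 members were called. At an unadjusted p under 0.05, limma had 2 of the 41 higher in inguinal WAT. The share over all genes was not counted for that fit, so those 2 are not read as a result. As deposited, Ndufs3 (0.17), Ndufb3 (0.02) and Ndufv3 had the only positive differences. After scaling, Ndufs3 (0.84), Ndufb3 (0.68) and Ndufv3 (0.66) had the most positive differences, and Ndufs5 (-1.71) and Ndufaf4 (-0.02) the only negative ones. Ndufb2 had the most negative difference as deposited besides Ndufs5 and Ndufaf4 (-0.59, limma adjusted p = 0.433).

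Members under 700 nt had more negative median differences than those of 700 to 2999 nt, as had other genes, and Ndufaf4, the longest member, stood apart from this order. The tested members ranged from 349 to 3632 nt with a median of 681 nt, against 2632 nt over all genes tested. After scaling, the 21 members under 700 nt had a median log2 difference of -1.10 in perigonadal WAT minus BAT and 14 were called; the 7 of 700 to 999 nt had -0.86 with 4 called, and the 10 of 1000 to 1999 nt had -0.51 with 1 called. The 2 members of 2000 to 2999 nt had a median of -0.36 with 0 called, and Ndufaf4 (3632 nt) had -0.89 and was called. Other genes with a mean of at least 20 FPKM had medians of -1.05 (163 genes under 700 nt, 54.6% called lower), -0.59 (129 genes, 25.6%) and -0.32 (330 genes, 12.1%) in the same classes, and 0.06 at 3000 nt or more (175 genes, 1.71%). Over all other genes tested, low ones included, the median under 700 nt was -0.75 with 31.1% called (360 genes). In inguinal WAT minus BAT the members' medians up to 1999 nt were -0.68, -0.50 and -0.12, against -0.55, -0.26 and -0.08 for the other genes of at least 20 FPKM, and Ndufaf4 had -0.91. Spearman's rho between transcript length and scaled difference over the 41 members was 0.64 in inguinal WAT minus BAT and 0.70 in perigonadal WAT minus BAT, and 0.42 and 0.62 over the 988 other genes. Over all 8917 other genes tested it was 0.18 and 0.37; genes share libraries and are not independent.

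**Figure D5:**
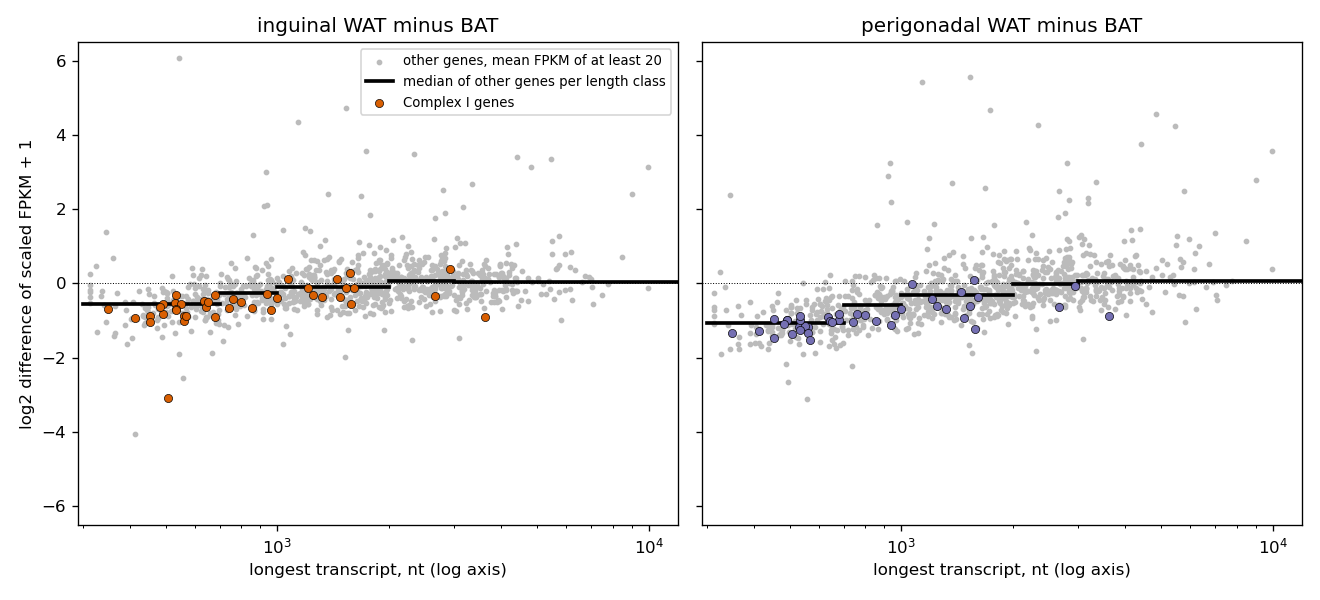
Log2 difference of scaled FPKM + 1 against the longest transcript of a gene (log axis) for inguinal WAT minus BAT (left) and perigonadal WAT minus BAT (right); coloured points are the 41 Complex I genes, grey points 988 other genes with a mean of at least 20 FPKM and black lines their medians per length class. Short genes of both kinds lie lower, apart from Ndufaf4 at the long end of the members, with black lines at -1.05 under 700 nt and 0.06 from 3000 nt in perigonadal WAT minus BAT.

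With each library's trend on transcript length removed, an alternative chosen after the data were seen and fitted without Nduf genes, the members' medians were -0.24 in inguinal WAT minus BAT and -0.34 in perigonadal WAT minus BAT. Called were then 1 member in inguinal WAT (Ndufaf4, background 0.960%) and 3 in perigonadal WAT (Ndufaf4, Ndufs6 and Ndufv3, background 0.848%). Ndufaf4, with the longest transcript of the tested members, had -0.97 (SE 0.18, limma adjusted p = 0.0183) and -1.01 (SE 0.21, adjusted p = 0.0303) in this fit, Ndufs6 -0.76 (SE 0.17, adjusted p = 0.0392) and Ndufv3 -1.09 (SE 0.20, adjusted p = 0.0173) in perigonadal WAT minus BAT. Ndufs6 and Ndufv3 are listed with 2 transcripts each, and the adjustment used the longest (567 and 1579 nt). Whether a shorter transcript carried their reads was not tested. Ndufb4 had -0.53 (limma adjusted p = 0.0560) and -0.56 (adjusted p = 0.0815) in inguinal and perigonadal WAT minus BAT, and Ndufa6 -0.59 (adjusted p = 0.0658) and -0.56 (adjusted p = 0.127). Ndufv1 stayed positive, at 0.31 and 0.21. The removal would also take out a depot difference that happens to follow length, and which share of the members' differences is of that kind cannot be told apart.

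Nuclear genes of the other respiratory complexes and of the mitochondrial ribosome are given beside those of Complex I. Of 43 tested subunit genes of complexes II to V (median transcript 692 nt), 6 were called lower in inguinal WAT and 21 in perigonadal WAT than in BAT after scaling (background 1.65% and 3.46%). Their medians were -0.49 and -0.81. Of 76 mitochondrial ribosomal protein genes (median transcript 1047 nt), 10 and 13 were called lower, with medians of -0.34 and -0.58. The scaled shares called in perigonadal WAT were 48.8% of Complex I members, 48.8% of complexes II to V and 17.1% of ribosomal proteins. Among the 163 other genes under 700 nt with a mean of at least 20 FPKM the share was 54.6%. As deposited, 3 genes of complexes II to V were called lower in inguinal WAT and 1 in perigonadal WAT (medians -0.48 and -0.14), and 3 and 0 ribosomal protein genes (medians -0.34 and 0.04). The background as deposited was 0.469% in inguinal WAT and 0.268% in perigonadal WAT. With length adjustment (background 0.960% and 0.848%) the counts were 1 and 0 for complexes II to V (medians -0.13 and -0.32) and 5 and 4 for ribosomal proteins (medians -0.21 and -0.25).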

How the data were processed

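Per the labels' protocols, GFP-tagged ribosomes of UCP1-positive cells were immunoprecipitated from fresh adipose tissue and their RNA sequenced. Per the submitters' processing notes, the authors used TopHat and Cufflinks with mm9 (versions not given in the sources used here). The deposited values are FPKM per transcript, 28702 transcripts in each of 8 libraries, and they stand as attribute text in an annotation file. Transcripts of a symbol were summed. Fragment numbers of single-transcript genes were recovered from FPKM and its upper confidence limit. Of the numbers up to 100, 85.35 to 92.93% per library were whole (within 0.05). Fragments over single-transcript genes numbered 198434 to 890576 per library, which covers counting error only.

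Main test: limma 3.58.1 in R 4.3.3 with a mean trend on log2(FPKM + 1), 3 groups in one fit, genes of at least 1 FPKM in at least 2 libraries with a transcript of at least 300 nt, 2-sided, Benjamini-Hochberg adjusted per comparison. Differences on this scale understate changes of low genes. The fit was tested on simulated data. Groups come from the titles. Named are called members, core genes, all assembly factors, Ndufa4, Ndufa4l2, Ndufab1 and the 3 most extreme by level and by difference in each comparison. Members and lists were chosen with earlier results of these data known. Alternatives were scaling, pseudocount, filters, transcript choice, replicate block and each library left out. Sums at the Ndufs5 locus and the length adjustment (lowess, span 0.3) were chosen after seeing the data. Promoters are RefSeq windows of GRCm38.p6, with none for 5 members, among them Ndufa2, Ndufa4l2, Ndufb9 and Ndufs1. Results of 1 member are not reported here; it stays in the counts and sums. Figures used matplotlib 3.10.9.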

Additional observations from a re-analysis of the deposited data

How the results depend on the processing

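Inguinal WAT minus BAT as deposited had 1 member called. Median-ratio scaling gave 7, the replicate block 2, and a pseudocount of 0.1, no filter on low values, the most abundant transcript, the Ndufs5 locus summed and Ndufs5 with BC002163 summed gave 0 each. Leaving out 1 library gave 1 to 2, with members' median log2 differences of -0.66 to -0.25 (the last without inguinal replicate 3). Perigonadal WAT minus BAT as deposited had 0 called; scaling gave 20 with a median of -0.99, fitting only the groups compared 2, the replicate block 1, and leaving out 1 library 0 to 5 (the last without inguinal replicate 3). Inguinal minus perigonadal WAT as deposited had 0; a minimum of 5 FPKM gave 1 and leave-outs 0 to 1, Ndufs5 each time, and the median was -0.29 unscaled and 0.35 scaled.

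After scaling, the 7 called in inguinal WAT minus BAT became 1 without scaling, 1 with length adjustment (median -0.24), 6 with the replicate block (5 of the 7, without Ndufa8 and Ndufs6, and Ndufs5) and 1 to 9 with 1 library left out. The 20 in perigonadal WAT minus BAT became 0 without scaling (median -0.32), 13 with the replicate block, 3 with length adjustment (median -0.34) and 2 to 25 with 1 library left out (medians -1.20 to -0.69). Summed subunit FPKM became 3712 in perigonadal WAT and 7312 in BAT with scaling. The causes of these changes were not tested.

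The labels do not say that replicate numbers pair libraries, and the numbers were not taken to do so. Same-numbered libraries correlated at 0.13, 0.08 and 0.10 in their deviations between inguinal WAT and BAT and at -0.01 to -0.09 in the other pairs of depots. Such deviations, unscaled and from means of 2 or 3 libraries, cannot decide whether libraries are paired. Against the fit as deposited, where Ndufs5 alone was called, 1811 values of single members kept their call or lack of one. These are fits with a single setting changed or a single library left out. Of the others, 43 gained a call and 6 lost it, and 63 values that were never called changed sign. Losses among the scaled calls are not in these counts and are given above. The shallowest inguinal library (198434 fragments) and the number of perigonadal libraries, 2, limit the precision.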
